A study of Homo sapiens with 30 samples.

Results

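Autophagy is the process by which a cell wraps damaged organelles, protein aggregates or engulfed particles in a double membrane and delivers them to lysosomes. The 37 genes described here encode its machinery and its cargo receptors. Each has at least 1 probe set on the array that maps to its symbol alone, and each was represented by its brightest probe set. All 37 were among the 10050 genes tested. They were measured in THP-1 cells, a human acute monocytic leukaemia line, made macrophage-like with 82 nM phorbol 12-myristate 13-acetate (PMA) for 24 h, then washed, scraped and plated again. Cells then received one of 2 materials at 10 or 100 µg/ml, or neither, for 1 or 24 h: carbon nanotubes with several walls (MWCNT), or nanobelts of titanium dioxide (TiO2-NB). This gave 10 groups of 3 arrays, which the labels call biological replicates without saying what separated them. All groups, controls included, carried the PMA treatment and came from 1 cell line, so no group is a primary macrophage.

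As background, the ULK1 kinase complex starts the process when mTORC1, a nutrient-sensing kinase, no longer holds it back. The class III phosphoinositide 3-kinase then marks the forming membrane with a lipid that WIPI proteins bind, and ATG2 proteins feed that membrane with lipid. Conjugation enzymes attach ATG8 proteins, the LC3 and GABARAP families, to the membrane. Cargo receptors hold ATG8 with one end and ubiquitin-tagged cargo with the other, and tethers and SNARE proteins fuse the finished autophagosome with a lysosome. In macrophages the pathway also handles phagocytosed material and injured lysosomes. Most of its control acts on proteins, and these arrays measured RNA only.

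All values are log2 RMA intensities, the deposited array signal, so a difference of 1 is a doubling. The mean of the 37 members over all arrays ran from 5.24 to 11.56, against 25th percentiles of 4.77 to 4.91 on the arrays. Differences are given ± the standard error (SE) of 1 limma model over all 30 arrays, and "called" means an adjusted p under 0.05, with the adjustment over all 10050 genes. Counts at an unadjusted p under 0.05 were made for members only. The shares of all genes called are at the adjusted threshold and are no yardstick for those counts. Arrays correlated at 0.979 or more, and at 0.994 or more within a group. The median residual SD was 0.106 for the members and 0.128 for all genes. Of 12 macrophage markers 11 were measured and 9 lay above the 25th percentile on all arrays, while FCGR1A did on none. The promonocyte genes, which THP-1 cells carry from their leukaemic origin, were also present, with 5 of 6 above that percentile on all arrays. Of 5 epithelial markers 2 (KRT8 and KRT18) were above it on all arrays and EPCAM, CDH1 and KRT19 on none. Of 5 lymphocyte markers measured 3 (CD3D, CD3E and CD79A) were above it on all arrays, CD2 on 23 and MS4A1 on none. Of 6 fibroblast markers 3 (COL1A1, DCN and PDGFRB) were above it on all arrays, COL1A2 on 20, and COL3A1 and LUM on none. These are bulk samples, in which fewer cells of a type and less RNA per cell cannot be told apart.

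After 24 h at 100 µg/ml TiO2-NB, autophagy genes at several steps of the pathway were higher than in unexposed cells of the same time. The cargo receptors SQSTM1 and OPTN rose most, to 1.65-fold and 1.5-fold of control. RB1CC1, the scaffold of the ULK1 complex, rose 1.41-fold, and MAP1LC3B, the main LC3 gene, rose 1.24-fold. Of the 37 members 9 were higher and 0 lower, a share of 24.3% called. Among all genes 22.1% were called in this comparison, with 10.9% higher and 11.1% lower. The members' differences ran from -0.10 to 0.73 with a median of 0.11, beside a median of 0.01 over all genes, and 27 of 37 lay above 0.

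**Figure D1:**
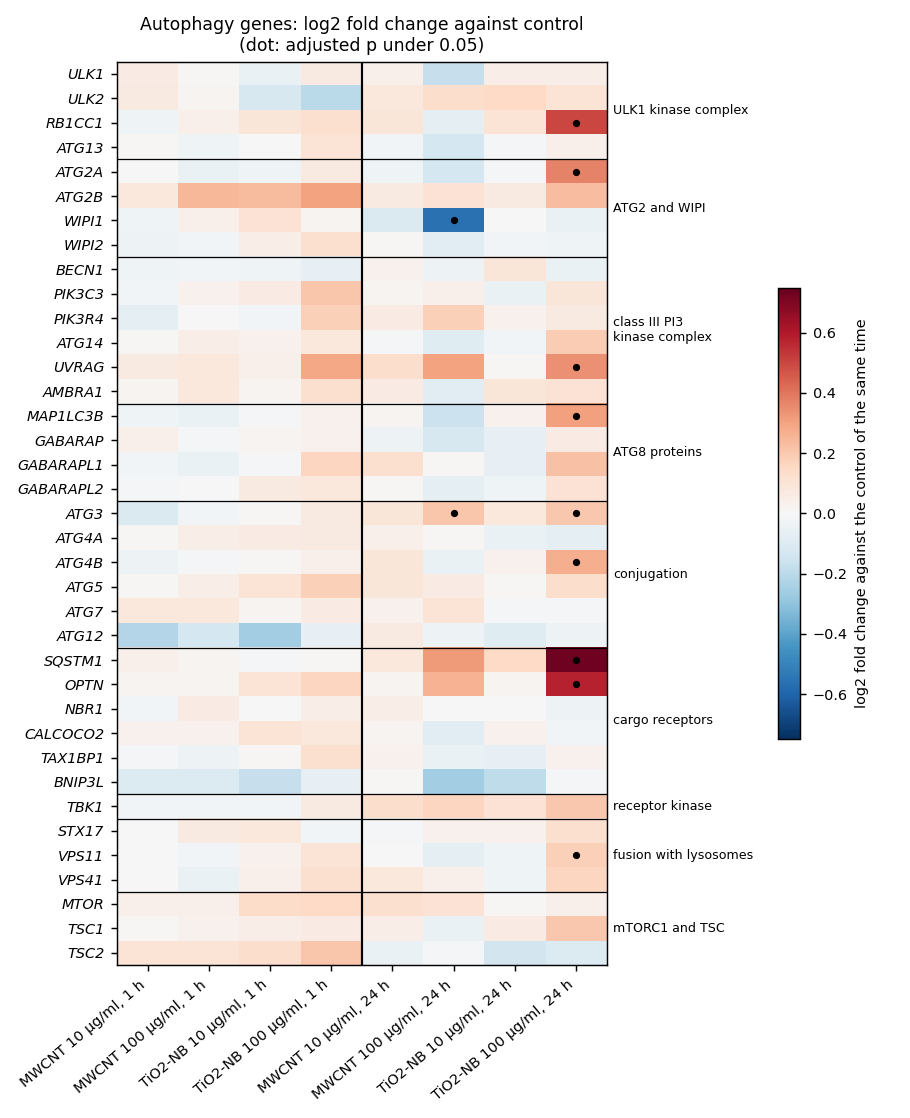
Log2 fold change of each of the 37 autophagy genes (rows, grouped by role) against the control of the same time, for both materials, both doses and both times (columns). Colour gives the log2 fold change and a dot an adjusted p under 0.05. The dots stand only in the 100 µg/ml columns at 24 h, with 9 for TiO2-NB and 2 for MWCNT.

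The heat map of fold changes against control shows this concentration at the high dose and the late time. Of the 6 cargo receptors 2 rose and the other 4 did not pass the test. SQSTM1, also called p62, carries ubiquitin-tagged proteins into autophagosomes. Its level on the 3 arrays of the 24 h control was 11.06, 11.07 and 11.41. On the 3 arrays at 100 µg/ml TiO2-NB it was 11.94, 11.90 and 11.88. Every exposed array lay above every control array, with a difference of 0.73 ± 0.11 (adjusted p = 4.79e-05). OPTN, a receptor for damaged mitochondria and intracellular bacteria, read 7.89, 7.85 and 8.01 in control and 8.65, 8.41 and 8.43 after TiO2-NB. Its groups did not overlap either, and the difference was 0.58 ± 0.10 (adjusted p = 8.55e-05). Of the other receptors NBR1 differed by -0.04, CALCOCO2 by -0.02, TAX1BP1 by 0.03 and BNIP3L by -0.01 on their brightest probe sets, and none of these 4 was called. A second probe set of BNIP3L gave 0.56 ± 0.13 and was called (adjusted p = 0.0022 over probe sets). TBK1, the kinase that phosphorylates OPTN, differed by 0.20 ± 0.09 and was not called (adjusted p = 0.0938).

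Among the 4 genes of the ULK1 kinase complex RB1CC1 rose and the other 3 did not pass the test. RB1CC1, also known as FIP200, read 9.23, 9.58 and 9.37 in control and 10.14, 9.69 and 9.85 after TiO2-NB. The lowest exposed array was still above the highest control array (0.50 ± 0.12, adjusted p = 0.00431). The kinase ULK1 itself differed by 0.05 and was not called. Of the 4 ATG2 and WIPI genes ATG2A, a lipid transfer protein, rose from 8.05, 8.04 and 8.27 to 8.6, 8.49 and 8.37. These arrays did not overlap (0.37 ± 0.11, adjusted p = 0.0173). Of 6 class III kinase genes only UVRAG, a subunit of the complex on endosomes, was called. It read 7.09, 7.32 and 7.57 in control and 7.74, 7.74 and 7.52 after TiO2-NB. Here the groups overlapped, since 1 exposed array fell below the highest control array (0.34 ± 0.11, adjusted p = 0.0226). BECN1, the regulatory core of that complex, differed by -0.05.

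On the brightest probe sets MAP1LC3B was the only one of the 4 ATG8 genes called. It read 10.36, 10.43 and 10.60 in control and 10.87, 10.74 and 10.71 after TiO2-NB, with no overlap (0.31 ± 0.08, adjusted p = 0.00581). MAP1LC3B has a near-identical copy, MAP1LC3B2, so its signal may not be of that gene alone. A second probe set of GABARAPL1, another ATG8 gene, gave 0.69 ± 0.13 and was called (adjusted p = 0.000269 over probe sets). Of the 6 conjugation genes 2 rose. ATG4B, the protease that trims ATG8 proteins before and after use, read 8.57, 8.64 and 8.6 in control and 8.85, 8.85 and 8.93 after TiO2-NB. The exposed arrays were all above control (0.27 ± 0.06, adjusted p = 0.00171). ATG3, the enzyme that places ATG8 on the lipid, went from 9.74, 9.85 and 9.83 to 10.16, 9.90 and 9.96. Its groups lay close but did not overlap (0.20 ± 0.07, adjusted p = 0.0374). The ATG12 conjugation genes ATG5, ATG7 and ATG12 differed by 0.13, -0.01 and -0.04 and were not called. Of the 3 fusion genes VPS11, a core subunit of the HOPS tether, rose from 8.71, 8.74 and 8.75 to 8.85, 8.90 and 8.98. No exposed array reached down to a control array (0.18 ± 0.06, adjusted p = 0.0274). The kinase gene MTOR and its upstream brakes TSC1 and TSC2 differed by 0.04, 0.20 and -0.10, and none of the 3 was called.

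In all, the arrays of both groups did not overlap for 14 of 37 members (37.8%) and for 33.3% of all genes. Several of the smaller calls rested on single arrays. Without replicate 1 of the 24 h control 5 of the 9 calls stood, and ATG2A (adjusted p = 0.0663), UVRAG (0.165), ATG3 (0.138) and VPS11 (0.0837) did not. Without replicate 2 of that control the same 4 genes missed the threshold, at 0.0714, 0.0588, 0.0503 and 0.0584. ATG3 also missed it without control replicate 3 (0.06). Of the exposed arrays, leaving out replicate 1 ended the calls of ATG2A (0.083), UVRAG (0.0861) and ATG3 (0.239). Leaving out exposed replicate 2 ended those of UVRAG (0.0831) and VPS11 (0.0539), and leaving out replicate 3 those of ATG3 (0.05, unrounded above the threshold) and VPS11 (0.126). SQSTM1, OPTN, RB1CC1, MAP1LC3B and ATG4B were called whichever single array was left out. In a fit of only these 2 groups MAP1LC3B (adjusted p = 0.0673), UVRAG (0.133), ATG3 (0.206) and VPS11 (0.171) were not called. The mean level of the macrophage markers was 9.08 to 9.14 on the control arrays and 8.68 to 8.81 after TiO2-NB. MSR1 fell by 0.94, CD163 by 0.82 and CSF1R by 0.37, so 3 of 10 tested markers were lower. Of the 6 promonocyte markers 0 were called, and their mean level was 7.57 to 8.28 in control and 7.45 to 8.12 after TiO2-NB. The fibroblast marker COL1A2 rose by 0.34, and the lists of other cell types gave no further call. The part of these marker differences in the result was not tested.

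**Figure D2:**
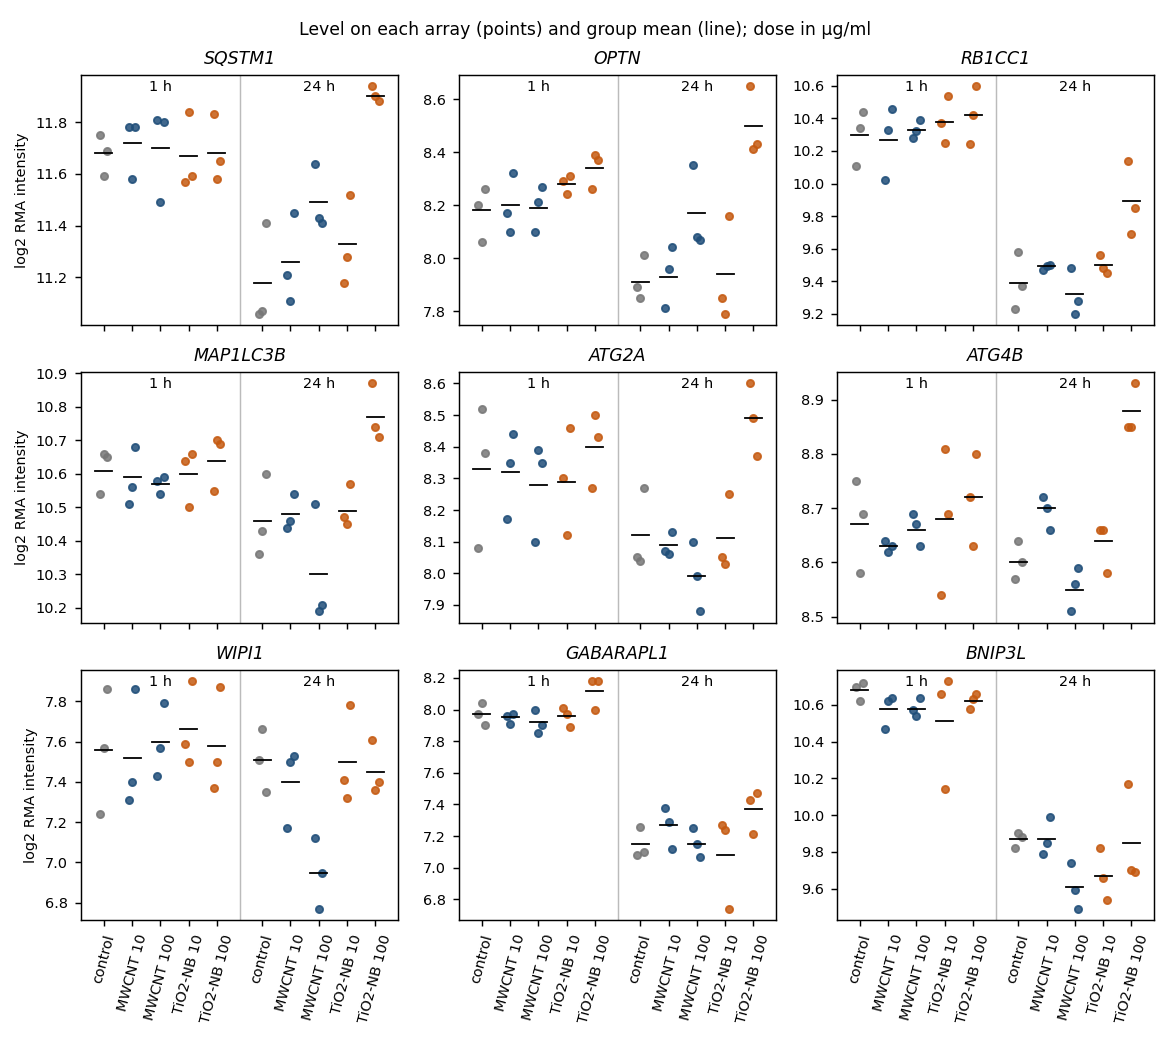
Log2 RMA intensity on every array (points) with the group mean (line) for 9 autophagy genes in the 10 groups, 1 h on the left and 24 h on the right of each panel. SQSTM1 and OPTN are highest among the 24 h groups at 100 µg/ml TiO2-NB, at group means of 11.90 and 8.50, and WIPI1 is lowest at 100 µg/ml MWCNT, at 6.95. The vertical scale differs between panels.

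The promoters of 3 of the genes that rose are printed to show the sequence in front of them, 250 bases upstream of a RefSeq start on GRCh38.p14, with 6 to 9 base motif matches on either strand in capitals. The SQSTM1 window, the most downstream of its 3 in the table, is at chr5:179820655-179820904 (+). The OPTN window, the more upstream of its 2, is at chr10:13099832-13100081 (+) and the MAP1LC3B window at chr16:87392086-87392335 (+). The other OPTN window, at chr10:13099913-13100162 (+), overlaps the printed one, and its matches are also all GGGCGG.
SQSTM1: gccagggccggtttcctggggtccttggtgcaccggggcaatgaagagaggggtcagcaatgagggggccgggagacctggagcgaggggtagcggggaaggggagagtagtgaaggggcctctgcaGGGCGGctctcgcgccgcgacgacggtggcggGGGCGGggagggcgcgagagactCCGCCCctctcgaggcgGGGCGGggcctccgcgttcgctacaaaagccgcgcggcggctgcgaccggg
OPTN: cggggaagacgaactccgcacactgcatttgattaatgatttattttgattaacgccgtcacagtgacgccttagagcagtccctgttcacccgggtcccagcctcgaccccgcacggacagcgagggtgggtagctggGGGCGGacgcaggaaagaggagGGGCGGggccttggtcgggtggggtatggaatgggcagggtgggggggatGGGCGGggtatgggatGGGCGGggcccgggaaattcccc
MAP1LC3B: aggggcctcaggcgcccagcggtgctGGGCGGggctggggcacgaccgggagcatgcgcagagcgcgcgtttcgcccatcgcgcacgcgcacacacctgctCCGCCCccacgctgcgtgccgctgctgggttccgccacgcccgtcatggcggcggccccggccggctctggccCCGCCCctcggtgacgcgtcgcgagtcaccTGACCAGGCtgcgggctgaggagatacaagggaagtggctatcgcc
The capitals in SQSTM1 and OPTN are all GGGCGG or its reverse complement, the GC box bound by Sp1. In MAP1LC3B they also hold TGACNNNGC, the core of the antioxidant response element. GGGCGG was in 23 of the 33 members with an entry and in 46.24% of 27305 genes, and TGACNNNGC in 4 members (CALCOCO2, MAP1LC3B, TSC2 and VPS11) and 13.22% of genes. GGGAANTCC, a form of the NF-kappaB site, was in 3 members (ATG13, BECN1 and NBR1) and 1.49% of genes. Other forms and lengths of that site were not searched. A stretch at the end of the printed OPTN window resembles the site but misses the exact pattern searched, so it is in lower case and not counted. It was not compared with those other forms, so OPTN is not shown to lack the site.

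The motif that TFEB-family regulators of lysosome and autophagy genes bind, GTCACGTG at its core, stood in the promoters of 5 of the 33 members with an entry, some with more than 1 window, and of 2.66% of all genes. These 5 stretches of 60 bases are shown because ATG3 and VPS11 rose after TiO2-NB while ATG14, TBK1 and TSC2 did not pass the test. Capitals mark GTCACGTG or its reverse complement CACGTGAC. Each of these matches contains CACGTG, which stood in the same 5 members and in 7.73% of genes. The GTCACGTG match overlaps the TGACNNNGC match in TSC2 and VPS11. The stretches lie at chr14:55411831-55411890 (-) for ATG14, chr3:112561963-112562022 (-) for ATG3, chr12:64452060-64452119 (+) for TBK1, chr16:2047843-2047902 (+) for TSC2 and chr11:119067758-119067817 (+) for VPS11.
ATG14: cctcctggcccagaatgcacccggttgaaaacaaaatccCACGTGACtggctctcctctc
ATG3: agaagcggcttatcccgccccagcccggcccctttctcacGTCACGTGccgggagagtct
TBK1: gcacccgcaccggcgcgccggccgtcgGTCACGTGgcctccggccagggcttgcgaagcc
TSC2: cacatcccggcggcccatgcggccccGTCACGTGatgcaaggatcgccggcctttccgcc
VPS11: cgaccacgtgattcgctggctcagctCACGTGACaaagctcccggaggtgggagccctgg
The match lies 20 bases before the RefSeq start in ATG3, 21 in ATG14, 33 in TBK1, 34 in VPS11 and 116 in TSC2. VPS11 has 2 windows, and the other one holds the same match farther from its own start. Whether the motif or its distance goes with the calls was not tested. A match is a description of letters and not a measured binding site.

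Carbon nanotubes at the same dose and time moved far fewer of these genes past the threshold. WIPI1, a protein that binds the lipid mark of the forming membrane, fell 1.48-fold, and ATG3 rose 1.15-fold. That is 1 higher and 1 lower of 37, where 13% of all genes were called, 8.99% higher and 4.04% lower. The members' differences from control ran from -0.56 to 0.32 with a median of -0.04, beside -0.01 over all genes.

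WIPI1 read 7.51, 7.66 and 7.35 in the 24 h control and 7.12, 6.77 and 6.95 after 100 µg/ml MWCNT. All MWCNT arrays were below all control arrays (-0.56 ± 0.17, adjusted p = 0.0291). A second probe set of WIPI1 gave -0.48 ± 0.17 and was not called (adjusted p = 0.0809 over probe sets). ATG3 read 10.05, 10.01 and 9.99 after MWCNT, above the control values of 9.74 to 9.85 (0.21 ± 0.07, adjusted p = 0.0477). Both calls were fragile. WIPI1 missed the threshold without control replicate 1 (adjusted p = 0.0846) or 2 (0.106) and without MWCNT replicate 2 (0.13) or 3 (0.0748), and in each of these 4 cases 0 members were called. ATG3 missed it when any 1 of the 6 arrays was left out, at 0.058 to 0.209. It also missed it in a fit of only these 2 groups (0.105), with median centring (0.113), with cyclic loess (0.0808) and with no filter (0.0607).

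The receptors that rose after TiO2-NB were not called here on their brightest probe sets. A second probe set of SQSTM1 was called as higher (0.40 ± 0.12, adjusted p = 0.028 over probe sets). SQSTM1 read 11.64, 11.43 and 11.41 after MWCNT, so that its lowest array met the highest control array at 11.41. The difference was 0.32 ± 0.11 (adjusted p = 0.0695). OPTN read 8.35, 8.08 and 8.07, all above control, and differed by 0.26 ± 0.10 (adjusted p = 0.0823). UVRAG differed by 0.30 ± 0.11 (adjusted p = 0.0603), and MAP1LC3B by -0.16 (adjusted p = 0.213). Without adjustment 8 members had a p under 0.05, a threshold at which all genes were not counted. The arrays of both groups did not overlap for 13 of 37 members and for 30% of all genes. Of the 10 tested macrophage markers MARCO, a scavenger receptor, rose by 0.71, and of the promonocyte markers MYB, a progenitor transcription factor, rose by 0.58. Their part in the result was not tested.

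Set against each other at 100 µg/ml and 24 h, the materials differed in autophagy genes in one direction. With MWCNT 12 of the 37 members were lower and 0 higher than with TiO2-NB, a share of 32.4%. Among all genes 24.9% were called, 10.9% lower and 14% higher. MAP1LC3B had the lowest adjusted p of the members, at 1.39-fold lower with MWCNT, and 3 of the 4 ATG8 genes were lower on their brightest probe sets. This comparison uses the exposed arrays of both contrasts against control, so it is not a further sample of either.

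**Figure D3:**
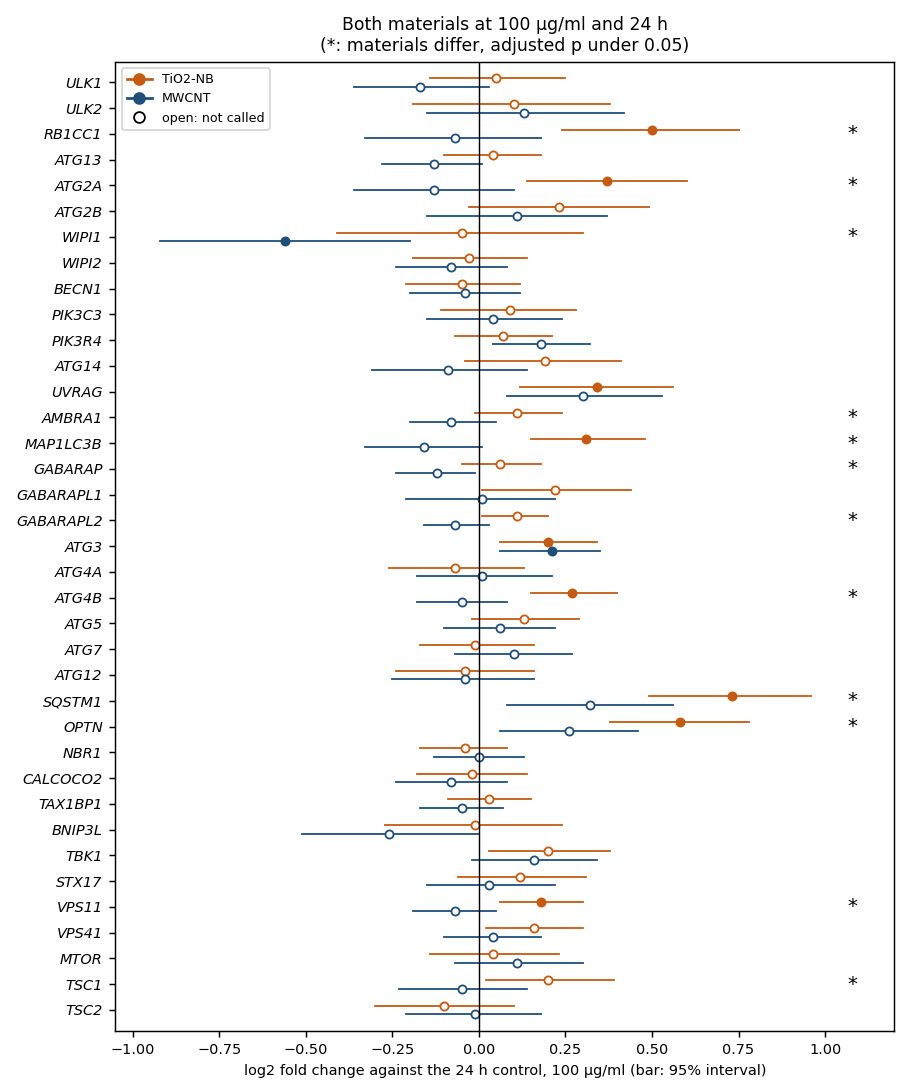
Log2 fold change of each autophagy gene against the 24 h control for 100 µg/ml TiO2-NB and 100 µg/ml MWCNT, with 95% intervals; filled points were called and open points were not. A star marks the 12 genes that differed between the materials, with MWCNT the lower in each.

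The plot of both materials against control shows where the 12 genes separate. RB1CC1 read 9.48, 9.20 and 9.28 with MWCNT and 10.14, 9.69 and 9.85 with TiO2-NB, without overlap (-0.57 ± 0.12, adjusted p = 0.0016). ATG2A read 8.10, 7.99 and 7.88 with MWCNT, all below its TiO2-NB arrays (-0.50 ± 0.11, adjusted p = 0.00206). WIPI1 with TiO2-NB read 7.61, 7.36 and 7.40, above the 3 MWCNT arrays (-0.51 ± 0.17, adjusted p = 0.0317). Each of these 3 genes had every MWCNT array below every TiO2-NB array, which can follow from picking them by their calls on these arrays. The shares without overlap over all members and all genes are given below.

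Among the ATG8 genes MAP1LC3B read 10.51, 10.19 and 10.21 with MWCNT, all below TiO2-NB (-0.47 ± 0.08, adjusted p = 0.000163). GABARAP, an ATG8 of the later steps, read 10.92, 10.87 and 10.85 with MWCNT and 11.08, 11.08 and 11.04 with TiO2-NB (-0.18 ± 0.05, adjusted p = 0.0165). GABARAPL2, its close relative, read 11.13, 11.16 and 11.16 with MWCNT and 11.36, 11.36 and 11.25 with TiO2-NB (-0.17 ± 0.05, adjusted p = 0.00779). Neither of the last pair overlapped between the materials, and neither was called for a material against control. The fourth, GABARAPL1, differed by -0.21 on its brightest probe set and was not called (adjusted p = 0.133). Its other probe set was called as lower with MWCNT, as given with the probe sets below.

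The receptors SQSTM1 and OPTN were lower with MWCNT as well, at -0.41 ± 0.11 (adjusted p = 0.0111) and -0.33 ± 0.10 (adjusted p = 0.0154). ATG4B read 8.51, 8.56 and 8.59 with MWCNT, close to control and below TiO2-NB (-0.32 ± 0.06, adjusted p = 0.000458). VPS11 read 8.6, 8.70 and 8.68 with MWCNT, again below every TiO2-NB array (-0.25 ± 0.06, adjusted p = 0.00282). TSC1, the partner of TSC2, read 9.34, 9.30 and 9.18 with MWCNT and 9.57, 9.52 and 9.49 with TiO2-NB, without overlap (-0.25 ± 0.09, adjusted p = 0.0414). AMBRA1, a binding partner of BECN1, read 7.68, 7.80 and 7.82 with MWCNT and 7.82, 8.08 and 7.97 with TiO2-NB (-0.19 ± 0.06, adjusted p = 0.0248). AMBRA1 was the exception among the 12 in that its groups were not separate, meeting at 7.82.

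ATG3, higher than control with both materials, differed between them by 0.01, with a 95% interval of -0.14 to 0.15. UVRAG differed by -0.04, with an interval of -0.26 to 0.19. Arrays of both materials did not overlap for 15 of 37 members and for 40.8% of all genes. With each array centred on its median, 17 members were lower and 0 higher. Of the 2776 genes then called 36.4% were higher, beside 56.3% of the 2505 called without that centring. Without MWCNT replicate 3 the count of members fell to 7. That ended the calls of SQSTM1 (adjusted p = 0.0504), OPTN (0.0754), WIPI1 (0.0723), GABARAP (0.0647) and TSC1 (0.159). Leaving out MWCNT replicate 2 ended those of OPTN (0.0689), WIPI1 (0.126) and TSC1 (0.0707), and leaving out replicate 1 that of AMBRA1 (0.126). Of the TiO2-NB arrays, replicate 1 carried the calls of OPTN (0.084 without it), WIPI1 (0.106) and TSC1 (0.102). Without TiO2-NB replicate 2 AMBRA1 (0.169), GABARAP (0.0525) and TSC1 (0.0865) missed the threshold, and without replicate 3 AMBRA1 (0.068), WIPI1 (0.0569) and TSC1 (0.0656) did. In a fit of only these 2 groups AMBRA1 (0.165), GABARAP (0.0764), GABARAPL2 (0.103) and OPTN (0.0737) were not called, and with the mean of its probe sets OPTN was not (0.0904). With the replicate number as a block 15 members were lower and 0 higher, the 12 among them. The macrophage markers had a mean level of 9.02 to 9.16 with MWCNT and 8.68 to 8.81 with TiO2-NB, with 4 of 10 higher and 0 lower with MWCNT, and of 6 promonocyte markers MYB was higher. Their part in the result was not tested.

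The rise after TiO2-NB was present against the lower dose as well. At 24 h 8 members were higher at 100 than at 10 µg/ml TiO2-NB and 0 were lower, where 13.5% of all genes were called, 7.38% higher and 6.1% lower. SQSTM1 at 10 µg/ml read 11.18, 11.28 and 11.52, all below its 3 arrays at 100 µg/ml (0.58, adjusted p = 0.0011). OPTN at 10 µg/ml read 7.85, 7.79 and 8.16, also without overlap (0.56, adjusted p = 0.000283). The other 6 were RB1CC1 at 0.39 (adjusted p = 0.0331), ATG2A at 0.38 (0.0225), UVRAG at 0.33 (0.0415), MAP1LC3B at 0.28 (0.0208), ATG4B at 0.24 (0.00834) and VPS11 at 0.21 (0.0143). These are the genes called against control except ATG3, and both comparisons share the arrays at 100 µg/ml. The doses did not overlap for 14 of 37 members and for 28.6% of all genes.

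The dose comparison rested on single arrays for 5 genes. Without replicate 1 at 100 µg/ml 4 members were called, and RB1CC1 (adjusted p = 0.199), ATG2A (0.0989), UVRAG (0.133) and MAP1LC3B (0.0997) were not. Without replicate 1 or replicate 2 at 10 µg/ml 5 were called. RB1CC1 then stood at 0.058 and 0.0943, ATG2A at 0.0864 and 0.0977, UVRAG at 0.16 and 0.131, and MAP1LC3B at 0.0736 and 0.085. Without replicate 2 at 100 µg/ml ATG2A (0.0571) and UVRAG (0.136) missed the threshold, and without replicate 3 RB1CC1 (0.0605) and VPS11 (0.081) did. Without replicate 3 at 10 µg/ml RB1CC1 (0.0897) and VPS11 (0.0635) missed it. With the mean of its probe sets RB1CC1 differed between the doses by 0.21 and was not called (0.378). In a fit of only these 2 groups SQSTM1 and OPTN were the 2 members called. Macrophage markers moved with the dose: MSR1 fell by 0.97, CD163 by 0.70 and CSF1R by 0.29, 3 of 10 tested, and their mean level was 9.08 to 9.18 at 10 µg/ml and 8.68 to 8.81 at 100 µg/ml. Of the markers of other cell types KRT8 rose by 0.27 and COL1A2 by 0.37, and 0 of 6 promonocyte markers were called. The part of these markers in the result was not tested.

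At 10 µg/ml and 24 h 0 members were called by limma for MWCNT, where 0% of all genes were called, and 0 for TiO2-NB, where 0.0199% were. An unadjusted p under 0.05 was reached by 0 members in either. Differences ran from -0.11 to 0.13 for MWCNT and from -0.19 to 0.15 for TiO2-NB, with medians of 0.04 and 0.01. The arrays of exposed and control cells did not overlap for 1 of 37 members with MWCNT (8.34% of all genes) and for 4 with TiO2-NB (9.63%). WIPI1 at 10 µg/ml MWCNT read 7.17, 7.50 and 7.53, which overlaps the control arrays. The materials at this dose differed in 0 members (0.00995% of all genes, 0 members unadjusted), with differences of -0.10 to 0.20 and 4 members without overlap (18.5% of all genes). For MWCNT, 100 against 10 µg/ml gave 0 called members by limma, where 4.67% of all genes were called, 3.1% higher and 1.56% lower. At an unadjusted p under 0.05 there were 8 members, and all genes were not counted at that threshold. The members' differences between these doses ran from -0.45 to 0.24, and 15 members did not overlap between the doses (25.2% of all genes). Without replicate 1 at 100 µg/ml MWCNT 1 member was called, as lower.

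After 1 h no exposure moved an autophagy gene past the threshold. With limma 0 members were called for MWCNT at 10 µg/ml (0% of all genes, 1 member unadjusted), MWCNT at 100 µg/ml (0%, 0 members) and TiO2-NB at 10 µg/ml (0%, 1 member). The differences ran from -0.22 to 0.10, from -0.13 to 0.25 and from -0.26 to 0.24. Arrays did not overlap with control for 3, 1 and 2 members in turn, beside 5.18%, 6.4% and 5.45% of all genes. TiO2-NB at 100 µg/ml also gave 0 called members, with 6 members at an unadjusted p under 0.05. At the adjusted threshold 1.15% of all genes were called for this exposure. Its differences ran from -0.20 to 0.30, at ATG2B, and the lowest adjusted p was 0.163, at UVRAG (0.29). Of 37 members 32 lay above 0 with a median of 0.08, beside 0.04 over all genes, and the members' median was 0.02 with each array centred on its median. Its arrays did not overlap with control for 10 members (20.7% of all genes). Between the materials 0 members differed at 10 µg/ml (0% of all genes, 0 unadjusted) and 0 at 100 µg/ml (1.42%, 4 unadjusted). Their arrays did not overlap for 2 members at 10 µg/ml (6.78% of all genes) and for 8 at 100 µg/ml (17.8%).

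Whether the TiO2-NB difference grew with time was tested as the 24 h difference from control minus the 1 h difference. It was larger at 24 h for 2 members, where 16.3% of all genes were called, 7.49% upward. SQSTM1 at 1 h read 11.75, 11.59 and 11.69 in control and 11.83, 11.58 and 11.65 at 100 µg/ml TiO2-NB, a difference of 0.01. Those arrays overlapped, while the 24 h arrays did not, and the change between times was 0.72 ± 0.16 (adjusted p = 0.00406). OPTN at 1 h read 8.20, 8.06 and 8.26 in control and 8.26, 8.39 and 8.37 after TiO2-NB, a difference of 0.16 with groups that meet at 8.26. Its change between times was 0.42 ± 0.14 (adjusted p = 0.0354). In control the means fell from 1 to 24 h, for SQSTM1 from 11.68 to 11.18 and for OPTN from 8.18 to 7.91. With 100 µg/ml TiO2-NB they rose, for SQSTM1 from 11.68 to 11.90 and for OPTN from 8.34 to 8.50. Each change between times holds both movements. MAP1LC3B at 0.28 (adjusted p = 0.0881) and ATG4B at 0.23 (0.0669) were not called. For MWCNT the change between times was called in 0 members by limma (3.71% of all genes, 2 members unadjusted), with values of -0.60 to 0.30.

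The call for SQSTM1 stood whichever array was left out. OPTN missed the threshold without the 1 h control replicate 1 (adjusted p = 0.0741) or 3 (0.0797), without the 1 h TiO2-NB replicate 1 (0.0742) or 3 (0.0531), without the 24 h control replicate 1 (0.0588) or 2 (0.0881), and without the 24 h TiO2-NB replicate 1 (0.0984). It also missed it in a fit of only the 4 groups compared (0.0508) and with the mean of its probe sets (0.084). With 6 of these arrays left out in turn SQSTM1 was the 1 member called. They were the 1 h control replicates 1 and 3, the 1 h TiO2-NB replicate 1, the 24 h control replicates 1 and 2 and the 24 h TiO2-NB replicate 1.

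On the brightest probe sets the largest differences between 2 groups came with time in culture rather than with a material. In unexposed cells 11 members were lower and 4 higher at 24 h than at 1 h, a share of 40.5%, where 36.9% of all genes were called, 16.1% lower and 20.8% higher. RB1CC1 fell 1.87-fold, GABARAPL1 1.77-fold and BNIP3L 1.76-fold. The members' median was -0.07, beside 0.03 over all genes, and 13 of 37 lay above 0. The arrays of both times did not overlap for 16 members and for 45% of all genes. Time after replating and time since PMA ran together here and cannot be told apart.

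**Figure D4:**
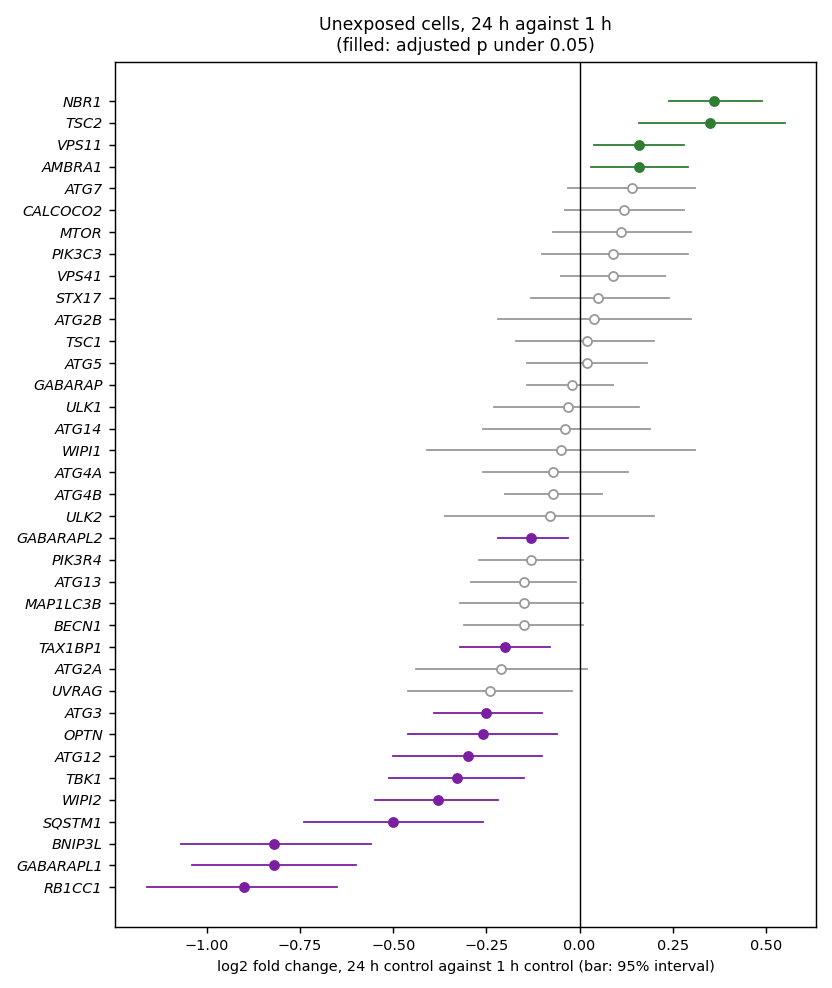
Log2 fold change of each autophagy gene between the 24 h and the 1 h control, ordered by size, with 95% intervals; filled points were called. RB1CC1 at -0.90, GABARAPL1 at -0.82 and BNIP3L at -0.82 lie farthest to the left, and NBR1 at 0.36 and TSC2 at 0.35 farthest to the right.

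Of the 6 cargo receptors 4 fell and 1 rose. BNIP3L, a receptor on mitochondria, read 10.70, 10.62 and 10.72 at 1 h and 9.82, 9.90 and 9.88 at 24 h (-0.82 ± 0.12, adjusted p = 9.09e-06). SQSTM1 read 11.75, 11.59 and 11.69 and then 11.06, 11.07 and 11.41 (-0.50 ± 0.11, adjusted p = 0.00112). NBR1, the relative of SQSTM1 in domain layout, moved the other way, from 9.26, 9.36 and 9.39 to 9.65, 9.80 and 9.66 (0.36 ± 0.06, adjusted p = 3.98e-05). None of these 3 overlapped between the times. OPTN at -0.26 (adjusted p = 0.0345) and TAX1BP1 at -0.20 (0.00823) fell less, and so did their kinase TBK1 at -0.33 (0.0035).

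In the machinery RB1CC1 read 10.11, 10.34 and 10.44 at 1 h and 9.23, 9.58 and 9.37 at 24 h, without overlap (-0.90 ± 0.12, adjusted p = 2.17e-06). GABARAPL1, an ATG8 protein, read 7.97, 8.04 and 7.90 and then 7.08, 7.26 and 7.10 (-0.82 ± 0.10, adjusted p = 8.22e-07). WIPI2, which recruits the conjugation machinery, read 10.13, 10.29 and 10.35 and then 9.81, 9.85 and 9.96 (-0.38 ± 0.08, adjusted p = 0.000355). These 3 genes each had every 24 h array below every 1 h array. ATG12 at -0.30 (adjusted p = 0.0169), ATG3 at -0.25 (0.00581) and GABARAPL2 at -0.13 (0.0268) also fell. TSC2, which restrains mTORC1, rose from 7.35, 7.45 and 7.51 to 7.80, 7.76 and 7.80 (0.35 ± 0.09, adjusted p = 0.00408). The other 2 genes that rose did so by less. VPS11 read 8.52, 8.6 and 8.61 and then 8.71, 8.74 and 8.75 (0.16, adjusted p = 0.0342). AMBRA1 read 7.69, 7.71 and 7.64 and then 7.86, 7.81 and 7.86 (0.16, adjusted p = 0.0399). All 3 had every 24 h array above every 1 h array.

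With cyclic loess scaling the split in this comparison was 2 higher and 15 lower, and AMBRA1 (adjusted p = 0.193) and VPS11 (0.164) were not called. Of the 3686 genes then called 50.2% were higher, beside 56.3% of the 3708 called without that scaling. A fit of only these 2 groups ended the calls of AMBRA1 (0.138), GABARAPL2 (0.225), OPTN (0.055), TAX1BP1 (0.0893), TBK1 (0.055) and VPS11 (0.152). With the mean of their probe sets ATG12 differed by -0.19 (0.0745) and OPTN by -0.23 (0.074). GABARAPL2 missed the threshold with median centring (0.0592), and AMBRA1 with no filter (0.0528) and with an intensity trend and robust prior (0.0556). The calls of 6 members ended when single arrays were left out. AMBRA1 missed the threshold without any 1 h replicate (0.0743, 0.0549 and 0.124 for replicates 1 to 3) and without 24 h replicate 1 (0.0974) or 3 (0.0988). ATG12 missed it without 1 h replicate 1 (0.0522) or 3 (0.0649) or 24 h replicate 1 (0.0565), and TAX1BP1 without 1 h replicate 3 (0.0546). GABARAPL2 missed it without 1 h replicate 2 (0.0574) or 3 (0.112) or 24 h replicate 1 (0.0721) or 3 (0.054). OPTN missed it without 1 h replicate 1 (0.0907) or 3 (0.133) or 24 h replicate 1 (0.087) or 2 (0.112). VPS11 missed it without 1 h replicate 1 (0.14) or 2 (0.0522) or 24 h replicate 2 (0.0752) or 3 (0.0916). The macrophage markers had a mean level of 8.24 to 8.44 at 1 h and 9.08 to 9.14 at 24 h, with 8 of 10 higher and 1 lower. The promonocyte markers had a mean of 9.61 to 10.03 and then 7.57 to 8.28, with 5 of 6 lower. The part of these markers in the result was not tested.

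Set side by side, 4 of the 9 genes that rose after 24 h of TiO2-NB had fallen over the same day in control. SQSTM1 had a mean of 11.68 in the 1 h control, 11.18 in the 24 h control and 11.90 after 24 h of TiO2-NB. OPTN had means of 8.18, 7.91 and 8.50, and RB1CC1 means of 10.30, 9.39 and 9.89. ATG3, with means of 10.05, 9.81 and 10.01, was the other gene called in both comparisons in these directions. VPS11 was called higher in both. The 2 comparisons share the 24 h control arrays, so their opposite signs are not separate evidence.

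Of the 37 members 22 were called in at least 1 of the 17 comparisons and 15 in none. The 15 called in none were the initiation genes ULK1, ULK2 and ATG13, the lipid transfer gene ATG2B, the lipid kinase PIK3C3 with its partners BECN1, PIK3R4 and ATG14, the conjugation genes ATG4A, ATG5 and ATG7, the receptor CALCOCO2, the fusion genes STX17 and VPS41, and MTOR. SQSTM1 and OPTN were called most often, in 5 comparisons each, followed by RB1CC1 and VPS11 in 4. Group means ranged over 1.1 for RB1CC1, 1.07 for BNIP3L and 1.04 for GABARAPL1, and over 0.15 for CALCOCO2, a receptor for invading bacteria.

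Probe sets read different stretches of a transcript, and 19 members had more than 1 in use. For the genes called after 100 µg/ml TiO2-NB at 24 h the other probe sets pointed the same way. Of 6 such sets 6 had the same sign and 4 were called, and the second set of SQSTM1 was higher by 1.03 ± 0.12 (adjusted p = 7.28e-07 over probe sets). That SQSTM1 set was also called after MWCNT, at 0.40 ± 0.12 (adjusted p = 0.028), where the brightest set was not. For RB1CC1 the second set gave 0.28 and was not called (adjusted p = 0.224).

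**Figure D5:**
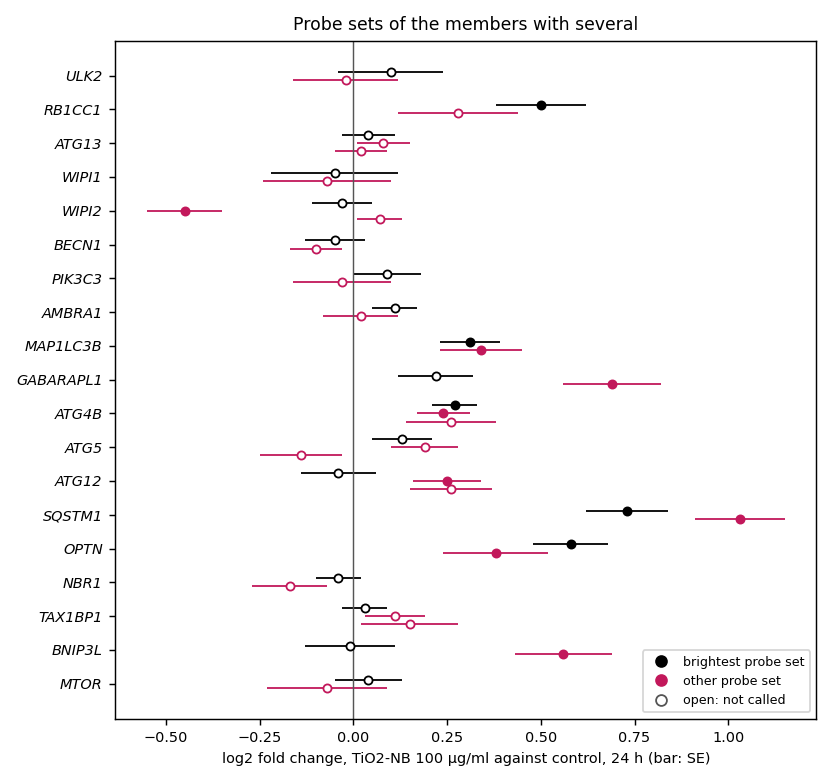
Log2 fold change after 100 µg/ml TiO2-NB for 24 h, with SE, of every probe set of the 19 members with more than 1; black is the brightest probe set and pink the others, filled where called. The pink points of GABARAPL1 at 0.69 and BNIP3L at 0.56 lie to the right of their black points at 0.22 and -0.01, and 1 of WIPI2 at -0.45 lies to the left.

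In 4 members whose brightest probe set was not called after TiO2-NB, another set was. GABARAPL1 differed by 0.22 on its brightest set (adjusted p = 0.139) and by 0.69 ± 0.13 on the other (adjusted p = 0.000269). BNIP3L differed as given above, and ATG12 by -0.04 and by 0.25 (0.0479) on 1 of its other sets. WIPI2 differed by -0.03 on its brightest set, by -0.45 ± 0.10 on another (adjusted p = 0.00145) and by 0.07 on the other. The GABARAPL1 and BNIP3L differences are therefore uncertain, and which transcript each set reads was not tested. Between the materials the other sets of GABARAPL1 and BNIP3L were both lower with MWCNT, at -0.77 (adjusted p = 0.000118) and -0.77 (0.000138). With time in control these sets fell like the brightest ones, by 1.5 for GABARAPL1, 1.26 for BNIP3L and 0.91 for WIPI2. The brightest set of ATG4B is of a type that can match other transcripts. A second set of that type gave 0.24 (adjusted p = 0.0109) after TiO2-NB, and the set of another type gave 0.26 and was not called (0.128).

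Other genes of the pathway, taken from lists of known genes, moved in both directions after 100 µg/ml TiO2-NB at 24 h. The counts here and in the next paragraph stand beside 2219 of all 10050 genes called in this comparison, 49.5% of them higher. Whether a list held more calls than that was not tested. Of 13 further core autophagy genes tested 4 rose and 1 fell. NRBF2, a subunit of the class III kinase complex, rose by 0.48 ± 0.08 (adjusted p = 0.000137), BCL2, which binds BECN1, by 0.40 (0.0108) and WDR45B, a WIPI relative, by 0.33 (0.000207). TMEM41B, a lipid scramblase, fell by 0.26 (adjusted p = 0.00301). Of 11 further receptors 1 rose and 2 fell. NCOA4, the ferritin receptor, rose by 0.29 (adjusted p = 0.00676), while TEX264, a receptor for endoplasmic reticulum, fell by 0.52 (0.00189) and BNIP3, the relative of BNIP3L, by 0.40 (0.0169).

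Further along, 2 of 10 tethering and fusion genes rose and 2 fell. PLEKHM1, an adaptor on lysosomes, rose by 0.27 and the SNARE YKT6 by 0.17, while the SNAREs VAMP8 and SNAP29 fell by 0.30 and 0.20. Of 19 genes controlling mTORC1 and AMPK 4 rose and 2 fell, led by DDIT4, an inhibitor of mTORC1, at 0.63 (adjusted p = 0.000313), and SESN1, another inhibitor, at -0.58 (8.55e-05). In the TFEB family TFEC rose by 0.60 (adjusted p = 0.00846) and MITF fell by 0.58 (0.0326), while the other 2 were not called. Of 13 genes of the response to lysosome damage 3 rose and 1 fell. LGALS3, a galectin that gathers on broken lysosomes, rose by 0.48 (adjusted p = 3.78e-05) and TRIM16, its partner, by 0.59 (0.0107), while CHMP2A of the ESCRT membrane repair machinery fell by 0.50 (1.11e-05).

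After 100 µg/ml MWCNT at 24 h, where 1309 of all 10050 genes were called, these lists gave few calls. BCL2 rose by 0.39 (adjusted p = 0.0182) and TFEC by 0.52 (0.0333), and SESN1 fell by 0.46 (0.00178) and the receptor TOLLIP by 0.26 (0.0462). Between the materials at this dose and time 2505 of all 10050 genes were called, 56.3% of them higher with MWCNT. Of the 13 further core genes 4 were lower with MWCNT, among them NRBF2 at -0.40, WDR45B at -0.25 and ATG101 at -0.24. TMEM41B was higher, at 0.21. Of 13 lysosome damage genes 5 were lower with MWCNT, among them LGALS3 at -0.68 and TRIM16 at -0.54. PLAA at 0.34 and CHMP2A at 0.32 were higher. Of 11 further receptors 3 were lower, led by PINK1 at -0.32, and BNIP3 at 0.45 and TEX264 at 0.40 were higher. Of 10 tethering and fusion genes 2 were lower, led by PLEKHM1 at -0.42, and VAMP8 was higher at 0.24. Of 19 genes controlling mTORC1 and AMPK 3 were lower, led by DDIT4 at -0.63, and LAMTOR2 was higher at 0.26. In control cells TRIM16 fell by 1.70, TFEC by 1.01, NRBF2 by 0.89 and MITF by 0.75 between 1 and 24 h, while BNIP3 rose by 0.74 and TFE3 by 0.66.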

How the data were processed

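RNA of 30 THP-1 cultures (10 groups of 3) was measured on Affymetrix arrays. The deposited values are log2 intensities made by the authors with RMA, per the submitters' processing notes; the version, batch structure and probe annotation used there are not given in the sources used here. Array medians were 6.35 to 6.46. With 3 arrays a group, precision is limited by that small number.

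Of 22277 probe sets 62 were controls, 19064 named 1 gene, 1043 several and 2108 none in the platform annotation; 1 probe set shared by GABARAPL1 and GABARAPL3 was left out. Kept were 15309 one-gene probe sets above their array's 25th percentile on at least 3 arrays, the brightest per gene, giving 10050 genes. Of 69 member probe sets 62 were kept. Groups came from the labels. One limma model (R 4.3.3, limma 3.58.1) of 10 group means gave 17 comparisons, with Benjamini-Hochberg adjustment over all genes and a threshold of 0.05. The 95% intervals use its 20 residual degrees of freedom. P-values measure the spread between these cultures. The fit was tested on simulated data.

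Members, lists and the naming rule were chosen with earlier results of these data known. Per-array values are given for members called at 100 µg/ml and 24 h, against control or between the materials, and for the 5 largest changes of either direction between the controls; SQSTM1, OPTN and WIPI1 also have them elsewhere. From each further list up to 4 called genes per comparison were named. Promoters (33 of 37 members matched) are from RefSeq, GRCh38.p14. Deviations of same-numbered arrays from their group means correlated above 0.1 in all 3 pairs for 10 of 20 pairs of groups. Of the comparisons with called members this held between the materials at 100 µg/ml and 24 h (0.36 to 0.62), and the labels do not say what the number marks. Alternatives were the replicate number as a block, other scalings, filters, probe set rules and samples.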

Additional observations from a re-analysis of the deposited data

Results flagged for a closer look

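For SQSTM1 and OPTN the difference of 100 µg/ml TiO2-NB from control was larger at 24 h than at 1 h, tested as an interaction in the limma fit. The change between times was 0.72 ± 0.16 for SQSTM1 (adjusted p = 0.00406) and 0.42 ± 0.14 for OPTN (adjusted p = 0.0354). For both genes the control mean fell and the TiO2-NB mean rose between the times. Of all 10050 genes 1642 were called in that test, 45.9% of them upward. The call for SQSTM1 was kept in 20 of 20 alternatives. That for OPTN was kept in 11 of 20, with a highest adjusted p of 0.0984.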

How the results depend on the processing

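In the 6 comparisons with called members, 43 of 54 settings other than single-array omissions kept the count within 1.5 times the reported count and 11 did not. In the other 11 comparisons the count was 0 in all 99 settings, which says nothing about stability. Fitting only the groups compared left 1 of 2 members after MWCNT at 100 µg/ml and 24 h, 5 of 9 after TiO2-NB, 2 of 8 between the TiO2-NB doses, 9 of 15 between the controls and 1 of 2 in the TiO2-NB change between times; this fit has fewer arrays. After MWCNT 1 was also called with median centring, cyclic loess or no filter. The TiO2-NB change between times gave 4 members with median centring, 4 when any probe set of a gene counted and 1 with the mean of probe sets. The cause was not tested. Of 684 alternatives for 48 calls 559 kept the call, 125 lost it and 0 reversed.

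Leaving out 1 array in turn gave 0 to 3 members after MWCNT, 5 to 8 after TiO2-NB, 7 to 11 between the materials, 0 to 1 between the MWCNT doses, 4 to 7 between the TiO2-NB doses, 10 to 14 between the controls and 1 to 3 in the TiO2-NB change between times. The replicate number did not pair the samples throughout: of 60 pairs of same-numbered arrays 38 correlated above 0.1, from -0.53 to 0.73, 10 of 20 pairs of groups did so in all 3 pairs, and 20 of 30 arrays correlated best with their own number. With the replicate block 2 members were called after MWCNT, 9 after TiO2-NB, 15 between the materials, 8 between the TiO2-NB doses, 15 between the controls and 2 in the TiO2-NB change between times. No call was lost under the block.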
